A study of Mus musculus with 5 samples.

Results

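Lgr5-positive columnar cells of mouse colon tumors under chemotherapy were defined by their raw counts of unique molecular identifiers (UMIs, each standing for 1 captured transcript). A barcode was kept with at least 500 genes and at most 15% mitochondrial UMIs. A kept cell was called columnar with at least 5 UMIs of Krt8, Krt18 and Lgals4 together, more of these than of the squamous keratins Krt5 and Krt14, and fewer than 3 UMIs of 6 immune, endothelial and fibroblast genes (Ptprc, Tyrobp, Csf3r, Pecam1, Cdh5, Dcn). A columnar cell with at least 2 UMIs of Lgr5 was a member. The rule found 571 members among 4680 columnar cells (12.2%), out of 7396 cells kept from 7451 barcodes. Members were compared with columnar cells of the same library that held 0 UMIs of Lgr5 and a like total of UMIs. The rule does not tell a tumor cell from a cell of adjacent colon.

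The cells came from colon tumors of mice labelled WT, in which tumors had been raised with azoxymethane, a mutagen, and dextran sodium sulfate, which inflames the colon (AOM/DSS). All mice had then received 5FU and Irinotecan. The study took 2 libraries of day 1 as early treatment, and 1 library of day 3 with 1 library of day 6 as late treatment. Its methods give the drugs in repeated cycles with harvest after the last cycle, while its results count days of treatment, so that the day from which the times count is not settled here. No untreated tumor was measured among these libraries, so that a change is from early to late treatment and not from an untreated state, and a library of untreated stroma was not used here. All tumors were dissociated in the same way and sequenced by inDrop, a droplet method for single cells. The libraries differed in structure, with a single index in day 1 replicate 1 and day 3 and a dual index in day 1 replicate 2 and day 6, and the labels give neither the sex nor the age of the mice. Values below are given in the order day 1 replicate 1, day 1 replicate 2, day 3 and day 6.

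Lgr5 is a receptor for R-spondins, secreted proteins that strengthen WNT signals, and marks the stem cells at the base of the intestinal crypt. WNT signals reach the nucleus through beta-catenin, which binds TCF and LEF proteins on DNA, and Lgr5 is itself a target of this pathway. Cells that leave the crypt base lose Lgr5 and turn into absorptive colonocytes or into secretory cells, and colon tumors with an activated WNT pathway keep cells of both kinds.

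Promoters of the WNT targets that rose in the members were read from RefSeq on GRCm38.p6, from 250 bases before to 50 after a start site, because TCF and LEF proteins recognise a short motif that can be looked for there. The motif was searched on both strands as CTTTG followed by 2 letters, each of them A or T, which makes 4 motifs of 7 letters of which no 2 can match at the same place. It lay in 5544 of all 32851 RefSeq windows (16.9%). Of the 17 WNT targets called higher below, 13 had a window, and 4 of their 20 windows held the motif. Among all genes, 201 of 1242 windows of genes called higher (16.2%), 129 of 1252 windows of genes called lower (10.3%) and 1056 of 8971 windows of genes tested (11.8%) held it. A match is a string of letters and not a site that was measured. Shown are 3 windows with a match, written in capitals, and those of Axin2 and Ascl2 for comparison, all 5′ to 3′ on the strand of the gene:
Sp5, a WNT-induced transcription factor, chr2:70474673-70474972, plus strand: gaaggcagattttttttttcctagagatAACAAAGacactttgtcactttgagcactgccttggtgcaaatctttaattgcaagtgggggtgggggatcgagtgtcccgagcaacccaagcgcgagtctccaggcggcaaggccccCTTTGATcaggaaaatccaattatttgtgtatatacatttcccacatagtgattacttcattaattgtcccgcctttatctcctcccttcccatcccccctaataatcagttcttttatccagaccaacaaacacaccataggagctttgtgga
Tnfrsf19, a receptor of the TNF family found on crypt base cells, chr14:61037938-61038237, minus strand: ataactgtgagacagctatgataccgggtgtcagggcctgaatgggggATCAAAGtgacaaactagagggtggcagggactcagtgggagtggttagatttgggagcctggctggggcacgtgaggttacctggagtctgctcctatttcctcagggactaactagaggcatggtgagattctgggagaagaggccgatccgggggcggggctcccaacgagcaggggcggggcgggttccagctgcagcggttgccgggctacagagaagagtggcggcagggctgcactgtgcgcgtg
Lef1, one of the DNA-binding partners of beta-catenin, chr3:131156044-131156343, plus strand: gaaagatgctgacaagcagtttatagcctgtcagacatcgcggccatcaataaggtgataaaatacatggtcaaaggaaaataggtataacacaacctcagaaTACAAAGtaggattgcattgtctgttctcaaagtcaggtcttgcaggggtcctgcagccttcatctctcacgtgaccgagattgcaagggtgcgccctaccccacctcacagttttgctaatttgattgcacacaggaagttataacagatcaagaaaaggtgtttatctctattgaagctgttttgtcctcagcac
Axin2, a scaffold that turns the pathway down, chr11:108920099-108920398, plus strand: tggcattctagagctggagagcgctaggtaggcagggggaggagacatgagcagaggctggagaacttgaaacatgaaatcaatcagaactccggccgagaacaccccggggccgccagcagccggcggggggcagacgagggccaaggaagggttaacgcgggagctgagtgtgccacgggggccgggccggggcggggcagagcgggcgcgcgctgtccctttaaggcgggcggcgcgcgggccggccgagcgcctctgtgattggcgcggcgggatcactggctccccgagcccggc
Ascl2, a transcription factor of crypt base stem cells, chr7:142969215-142969514, minus strand: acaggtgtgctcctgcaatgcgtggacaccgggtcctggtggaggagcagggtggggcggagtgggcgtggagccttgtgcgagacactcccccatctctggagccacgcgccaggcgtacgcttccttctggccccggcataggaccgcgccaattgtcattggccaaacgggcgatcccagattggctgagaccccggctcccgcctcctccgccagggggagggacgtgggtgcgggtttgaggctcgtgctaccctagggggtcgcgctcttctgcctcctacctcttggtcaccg
The Sp5 window held 2 matches, with their first bases counted at -222 and -104 from the start site. Those of Tnfrsf19 (-202) and Lef1 (-147) held 1 match each, in the window of 1 of several start sites, and those of Axin2 and Ascl2 held 0.

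Members were common in the early libraries and scarce in the late ones. They made up 122 of 497 columnar cells in day 1 replicate 1 (24.5%, exact 95% binomial interval 20.8 to 28.6) and 321 of 1446 in day 1 replicate 2 (22.2%, 20.1 to 24.4). Day 3 held 109 of 1042 (10.5%, 8.67 to 12.5) and day 6 held 19 of 1695 (1.12%, 0.676 to 1.74). Both early shares lay above both late ones and their intervals did not meet at the depth of the files, but the intervals cover the counting of cells and not the spread between mice. The shares are what the rule selects on, and are given with no test.

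**Figure D1:**
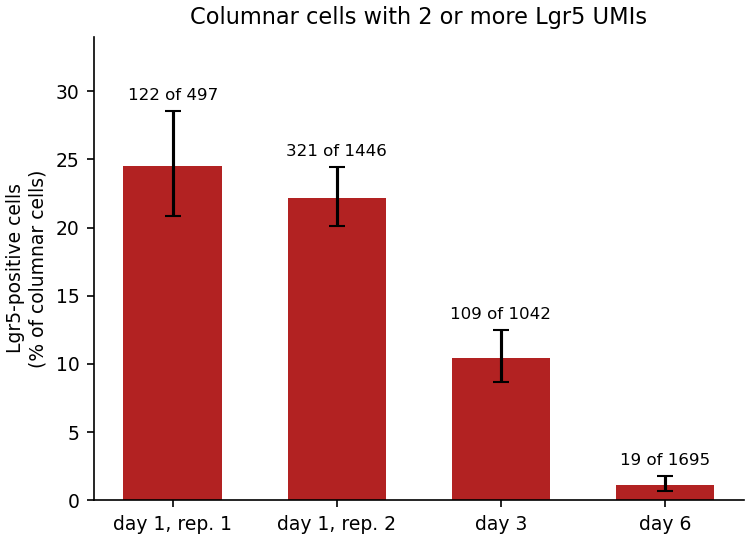
Share of columnar cells (%, y axis) with 2 or more Lgr5 UMIs in each library (x axis), with exact 95% binomial intervals as bars and the numbers of cells above them. The share was 24.5% and 22.2% in the day 1 libraries, 10.5% in day 3 and 1.12% in day 6.

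Depth differed between the libraries, and the shares were also taken at equal depth. When every columnar cell of at least 1000 UMIs was thinned to 1000, a UMI of Lgr5 remained in 16.5%, 12.9%, 9.98% and 1.02% of cells, and the median depth of a columnar cell was 3318, 4792.5, 3194 and 2154 UMIs before. The gap between the early libraries and day 3 was smaller at equal depth, where the intervals of day 1 replicate 2 (11.2 to 14.8) and day 3 (8.23 to 12.0) met. With at least 3 UMIs as the limit the shares were 20.1%, 17.2%, 4.89% and 0.885%, and with at least 1 UMI 40.6%, 36.2%, 26.8% and 2.77%. In each of these 4 ways day 6 was lowest and day 3 lay between it and the early libraries.

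Free RNA can place a UMI of Lgr5 in a cell that does not express it. Of 126 immune cells of the same libraries, with a median of 1435.5 to 2395.5 UMIs, 8 held at least 1 UMI of Lgr5 and 2 held at least 2. By library, 3 of 21, 5 of 83, 0 of 2 and 0 of 20 immune cells held at least 1 UMI. Squamous cells, taken as those with more Krt5 and Krt14 than columnar keratins, held at least 2 UMIs in 33 of 1226 cells, or in 3.77%, 0.495%, 1.77% and 3.49%. The day 6 share of columnar cells, 1.12%, thus stood below the 3.49% of squamous cells in that library, whose median depth was 5576 UMIs against 2154, and a part of the 19 members of day 6 cannot be told apart from background. The same holds for members of day 1 with few Lgr5 UMIs, since all immune cells with Lgr5 came from the day 1 libraries.

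Lgr5 also varied among the members. Its median was 6, 5, 2 and 4 UMIs per member, with a highest value of 61, 37, 13 and 31. At the limit itself stood 157 members with exactly 2 UMIs, 58 of them among the 109 of day 3, and just outside it 481 columnar cells with 1 UMI. At least 10 UMIs were held by 38, 81, 1 and 5 members. Members of day 3 were thus mostly near the limit, while the early libraries held most of the cells with many Lgr5 UMIs. Lgr5 made up 615, 544, 454 and 451 CPM of the members' UMIs (counts scaled to the same total in each library), a level the rule fixes from below.

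Levels of other genes by Lgr5 count are given as a description. Smoc2, a secreted matrix protein of stem cells, stood in day 1 replicate 1 at 58.8 CPM in cells without Lgr5, 107 with 1 UMI, 137 with 2 or 3, 589 with 4 to 9 and 645 with 10 or more. In day 3 the same classes up to 4 to 9 UMIs gave 60.6, 85.7, 197 and 331 CPM of Smoc2. Krt20, a keratin of differentiated surface cells, stood at 468, 310, 412, 52.0 and 45.7 CPM in day 1 replicate 1 and at 566, 452, 193 and 319 in day 3. Cells with 1 UMI of Lgr5 lay between the cells without it and the members for Smoc2, and for Krt20 in day 3.

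The members were deeper than the cells without Lgr5. Their median was 12074, 11853, 6120 and 13959 UMIs, against 2351, 3176, 2770 and 2120.5. A deep cell is more likely to show 2 UMIs of any gene, and the part of this in the difference was not tested. After matching 1 to 1 within the library, at most 10% apart in total UMIs, the medians were 8105 against 7861, 12093.5 against 11121, 6120 against 6092 and 13959 against 13953. Matching kept 83, 312, 109 and 19 members (523), and 48 deep members of day 1, 39 of them in replicate 1, had no partner and are outside the comparison. The mitochondrial share of the matched members had a median of 2.82%, 3.27%, 0.861% and 1.33%, against 2.84%, 3.17%, 0.675% and 1.06% in their partners. Barcodes of 7, 6, 3 and 0 members also occurred in another treated library.

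Epithelial genes outside the rule were present in the members. Cdh1 (E-cadherin) stood at 851, 585, 970 and 575 CPM in matched members and Cldn7, a claudin of tight junctions, at 556, 522, 809 and 1110. Of the stem cell genes, Olfm4 was at 0 UMIs in every library, and Ascl2 was low. T cell genes summed to at most 30.4 CPM in the members and endothelial genes to at most 71.4, with Cd3e at 0 UMIs. Higher sums were found in matched members for squamous genes (752 to 2151 CPM, against 1276 to 2928 in their partners), neutrophil genes (223 to 354) and macrophage genes (143 to 227). At least 3 UMIs of squamous genes were held by 87.2% to 100% of matched members and by 89.7% to 100% of their partners. Plasma cell genes were not near 0: they summed to between 397 and 5854 CPM in matched members and between 792 and 24997 CPM in their partners, higher in the partners of every library.

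Sums of UMIs per library and class were compared by edgeR's quasi-likelihood test with the library as a block, with adjustment over all 8939 genes tested (Benjamini-Hochberg, threshold 0.05). In the members 1177 genes were higher (13.2%) and 1259 lower (14.1%), and genes of the rule itself were left out. Counts of called genes in each list below are to be read beside these shares. The median log2 fold change of all genes was 0.041. Levels are given below as CPM with TMM scaling, first the 4 member values and then those of their partners. Each class has 1 sum per library, and the p-values measure only the spread between these 4 libraries.

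The count depended on day 1 replicate 2, the library with most members: without it 1075 genes passed, and without day 1 replicate 1 1513, against 2470 without day 3 and 2183 without day 6. At 1000 UMIs per cell 2254 genes could be tested and 491 passed, and of the 885 genes called above that were among them 416 passed in the same direction and 20 had the opposite sign. With no library block 0 passed in edgeR, and 1166 genes had an unadjusted p under 0.05.

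The largest rises were of genes from several classes. Gulo, the last enzyme of vitamin C synthesis, stood at 38.6, 56.6, 22.1 and 60.2 CPM in members against 0, 4.84, 0 and 0 (log2 fold change 3.98 ± 0.38 SE, adjusted p = 5.1e-05). The imprinted RNA H19 rose by 2.96 ± 0.42 (adjusted p = 0.000297) and Adam12, a metalloprotease, by 2.73 ± 0.27. H19 was not among the genes tested without day 1 replicate 1. Both Dach transcription factors rose, Dach2 by 2.45 ± 0.21 and Dach1 by 2.53 ± 0.38, the latter with adjusted p = 0.0693 without day 1 replicate 1 and 0.051 without day 3. Gdf11, a ligand of the TGF-beta family, rose by 2.50 ± 0.26, Clstn2 by 2.80 ± 0.25, and Gm11978 by 2.82 ± 0.27. Pnliprp1, a relative of pancreatic lipase, and Mdga2 rose by 2.92 ± 0.56 and 2.52 ± 0.43, but neither passed without day 1 replicate 1 (adjusted p = 0.14 and 0.0813) or without day 3 (0.103 and 0.0947).

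Among stem cell genes 22 of 30 could be tested, 12 were higher, 2 were lower and the median log2 fold change was 0.57. This list shares genes with the WNT targets below, among them Sp5 and Tnfrsf19, so that the counts of both lists are not separate results. Smoc2 stood at 501, 267, 249 and 259 CPM in members and at 42.3, 50.8, 47.9 and 11.1 in their partners. The classes did not overlap, and the rise was 2.85 ± 0.26 (adjusted p = 0.000141). Sox9, a transcription factor of crypt progenitors, stood at 533, 397, 325 and 244 CPM against 222, 224, 193 and 89.2. Every member value of Sox9 was above every partner value, by 1.02 ± 0.13. Ascl2 rose less evenly, with 62.6, 41.5, 113 and 66.2 CPM against 32.1, 24.7, 41.9 and 3.72 (1.13 ± 0.24, adjusted p = 0.00445).

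Rnf32 (2.18 ± 0.24), Tnfrsf19 (1.93 ± 0.29), Mex3a (1.51 ± 0.28), Hopx (0.98 ± 0.13), Cdca7 (0.71 ± 0.13), Ephb3 (0.61 ± 0.17), Cdk6 (0.52 ± 0.17) and Rgmb (0.87 ± 0.30) rose too, but Rgmb passed in none of the 4 fits that left out a library, with adjusted p from 0.077 to 0.21. Aqp4, a water channel, and Vdr, the vitamin D receptor, fell, with log2 fold changes of -1.77 ± 0.29 and -1.29 ± 0.32. Without day 1 replicate 2 the adjusted p was 0.0766 for Mex3a, 0.0966 for Ephb3, 0.16 for Cdk6 and 0.146 for Vdr, and Cdk6 did not pass without day 1 replicate 1 (0.277) or day 6 (0.115) either. Values of Cd44 (-0.43 ± 0.24), Ephb2 (-0.12 ± 0.13), Prom1 (-0.01 ± 0.16) and Lrig1 (0.51 ± 0.21) did not pass, although all are used as stem cell markers.

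WNT targets that passed the test were all higher in the members. Of 32 genes 26 were tested, 17 were higher, 0 were lower and the median was 1.41. Axin2 stood at 281, 262, 167 and 123 CPM in members and 44.9, 105, 43.4 and 11.1 in their partners, with no overlap (1.93 ± 0.25, adjusted p = 0.000596). Prox1, a transcription factor found in WNT-driven colon tumors, stood at 901, 751, 190 and 328 CPM against 171, 139, 47.9 and 11.1 (2.52 ± 0.27, adjusted p = 0.000719). Its antisense gene Prox1os rose by 2.58 ± 0.32, but reads of the pair may be shared, since whether the counting used strand is not given in the sources used here.

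Several of the WNT targets that rose restrain the pathway. Rnf43 and Znrf3, ligases that remove WNT receptors from the membrane, rose by 1.45 ± 0.16 and 2.00 ± 0.21. Notum, an enzyme that inactivates WNT ligands, stood at 477, 338, 253 and 190 CPM against 78.2, 91.9, 50.9 and 0, with 0 UMIs in the 19 partners of day 6 (2.39 ± 0.36). Nkd1, which dampens the signal in the cytoplasm, rose by 2.44 ± 0.40 and Dkk3, a relative of the secreted Dickkopf inhibitors, by 2.72 ± 0.29. Wif1, which binds WNT ligands, stood at 1064, 699, 179 and 156 CPM against 322, 216, 61.4 and 0 (1.85 ± 0.39). Notum and Nkd1 did not pass without day 1 replicate 1 (adjusted p = 0.0682 and 0.0772) or without day 3 (0.0678 and 0.0822), and Wif1 passed only in the fit without day 6 among those that left out a library (adjusted p = 0.131, 0.087 and 0.138 in the others).

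The targets whose promoters are shown above rose as well, Sp5 by 2.18 ± 0.25, Lef1 by 2.24 ± 0.21 and Tnfrsf19 by 1.93 ± 0.29, so that promoters with and without the motif both belonged to genes that rose. Nav2 rose by 1.54 ± 0.17. Values of Myc (0.17 ± 0.13), Ccnd1 (0.22 ± 0.17) and Ccnd2 (-0.11 ± 0.12), the targets that drive growth, did not pass, nor did Zfp703, which was lower in each library (-0.40 ± 0.16, adjusted p = 0.0771), nor Dkk2 (1.37 ± 0.43, adjusted p = 0.0887), whose member value was above its partner value in each library.

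**Figure D2:**
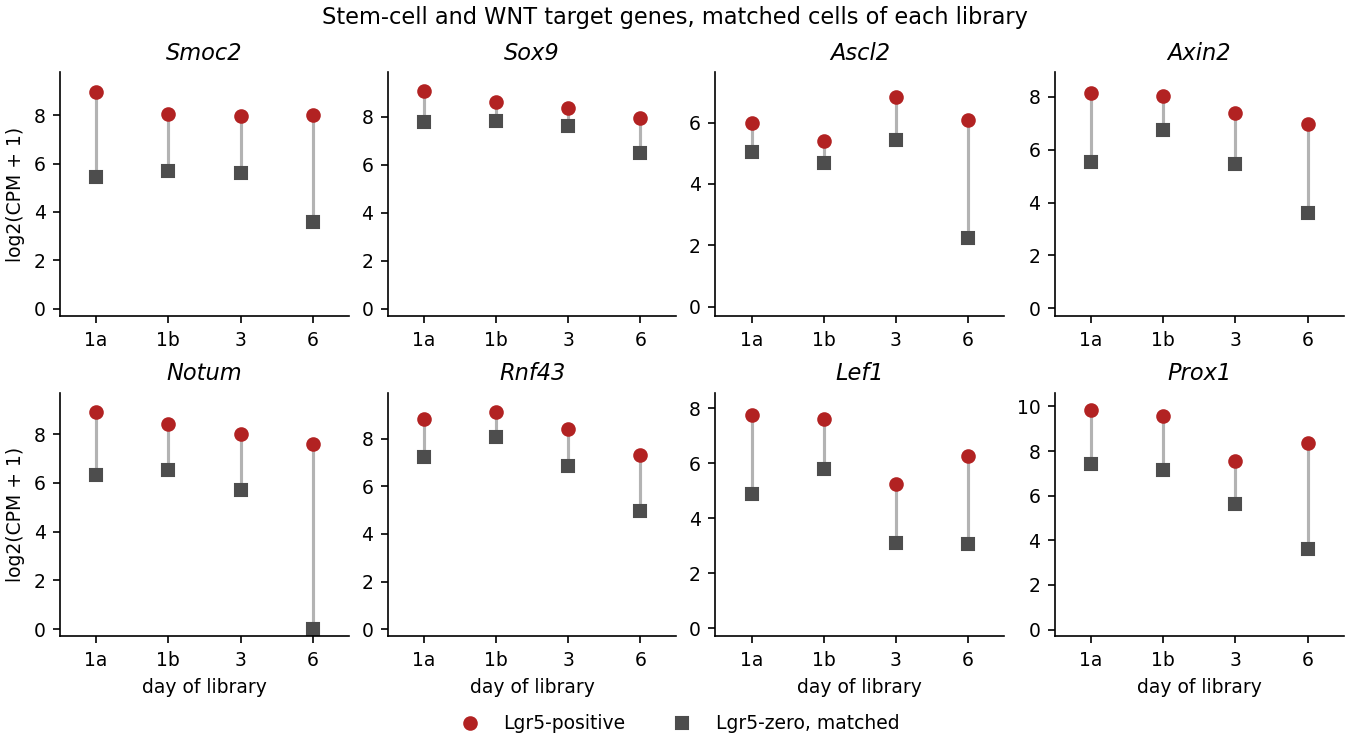
Level of stem cell genes and WNT targets, as log2 of CPM plus 1 (y axis), in the matched Lgr5-positive cells (red) and their Lgr5-zero partners (grey) of each library (x axis, with 1a and 1b for the replicates of day 1). Smoc2, for example, stood at 249 to 501 CPM in the Lgr5-positive cells and at 11.1 to 50.8 CPM in their partners.

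The parts of the WNT pathway did not move together. Of 22 tested of 37 ligand, receptor and transducer genes, 5 were higher and 4 lower, with a median of 0.14. Over all genes tested, 13.2% were higher and 14.1% lower. Ctnnb1, which encodes beta-catenin, was higher by 0.66 ± 0.15 (adjusted p = 0.0051) and Ror2, a receptor for WNT ligands, by 1.60 ± 0.32. Lgr4, the close relative of Lgr5, was lower (-0.53 ± 0.15), at 103, 96.8, 89.9 and 54.1 CPM against 129, 149, 106 and 126. The Frizzled receptor genes Fzd5 (-1.43 ± 0.26) and Fzd1 (-1.52 ± 0.27) and the repressor Tcf7l1 (-1.16 ± 0.20) were lower too. Ctnnb1, Lgr4 and Fzd1 did not pass without day 1 replicate 2 (adjusted p = 0.0654, 0.195 and 0.0854). Apc (0.36 ± 0.15) and the receptor gene Lrp6 (0.10 ± 0.17) gave values that did not pass.

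Genes of the BMP pathway, which drives differentiation, included 5 higher and 1 lower of 13 tested (median 0.41). Id3, an inhibitor of transcription factors that BMP signals induce, stood at 513, 385, 414 and 235 CPM against 164, 163, 153 and 96.6, with no overlap (1.41 ± 0.12, adjusted p = 4.85e-05). Id2 rose by 1.00 ± 0.21, the feedback inhibitor Smad7 by 0.75 ± 0.19, and the ligand Bmp7 by 2.05 ± 0.38, whereas Id1 gave -0.22 ± 0.10 and did not pass. Bmp2, a ligand of the crypt surface, fell (-1.50 ± 0.37), but did not pass without either library of day 1 (adjusted p = 0.0584 and 0.218), and Id2 and Smad7 did not pass without replicate 2 of day 1 (0.131 and 0.103).

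Of 8 tested Notch genes, Notch1 (0.98 ± 0.20) and Hes6 (1.31 ± 0.25) were higher and 0 were lower, with a median of -0.20. Hes1, the main Notch target, gave -0.16 ± 0.14 and did not pass. Notch1 missed the threshold without day 1 replicate 2 (adjusted p = 0.0572) and Hes6 without day 1 replicate 1 (0.0629).

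Colonocyte genes were lower in the members. Of 39 listed genes 30 were tested, 24 were lower, 2 were higher and the median was -1.84. Muc3, a membrane mucin of the brush border, stood at 291, 176, 1280 and 674 CPM in members against 2182, 1123, 3159 and 2486 in their partners. It was lower in each library, with a log2 fold change of -2.19 ± 0.34 (adjusted p = 0.0172). Klf4, a transcription factor of differentiating surface cells, stood at 77.2, 134, 120 and 328 CPM against 354, 380, 228 and 1111, and fell by 1.60 (SE 0.17). Krt20 stood at 53.2, 60.0, 241 and 397 CPM against 510, 610, 611 and 1315, with no overlap (-2.41 ± 0.50, adjusted p = 0.0428), but passed only without day 1 replicate 2 among the fits that left out a library, with adjusted p of 0.14, 0.0592 and 0.0544 without the others.

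Transporters, enzymes and gasdermins were among the genes that fell. The carbonic anhydrase gene Car2 stood at 170, 119, 232 and 295 CPM against 441, 307, 346 and 528 (-1.06 ± 0.14), and the sulfate transporter gene Slc26a2 fell by 1.14 (SE 0.16). Atp12a, a proton and potassium pump of the distal colon, fell (-3.09 ± 0.34), as did Slc6a14, an amino acid transporter (-2.55 ± 0.26). Slc5a8, a transporter of short-chain fatty acids, fell by 2.48 (SE 0.53), but did not pass without day 1 replicate 2 (adjusted p = 0.0833). The retinol dehydrogenase gene Dhrs9 (-2.40 ± 0.21), the adhesion gene Ceacam20 (-2.71 ± 0.28), the kallikrein gene Klk1 (-2.67 ± 0.25) and the kinase gene Ptk6 (-3.22 ± 0.43) fell as well. Gsdmc2, Gsdmc3 and Gsdmc4, gasdermins of the surface epithelium, fell too (-2.25, -2.25 and -2.43), and reads may be split between these near-identical copies. Of these, Gsdmc4 did not pass without day 1 replicate 1, day 1 replicate 2 or day 3 (adjusted p = 0.099, 0.0643 and 0.14).

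Slc9a3, the sodium and proton exchanger of absorptive cells, went the other way, at 41.7, 56.6, 69.2 and 30.1 CPM in members against 3.85, 11.9, 8.99 and 0 (2.59 ± 0.27, adjusted p = 5.16e-05). Lypd8, a protein that keeps bacteria from the epithelium, stood at 683, 702, 2597 and 5598 CPM against 5331, 4623, 5729 and 17454, but its difference of -2.12 ± 0.44 did not pass (adjusted p = 0.0506).

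**Figure D3:**
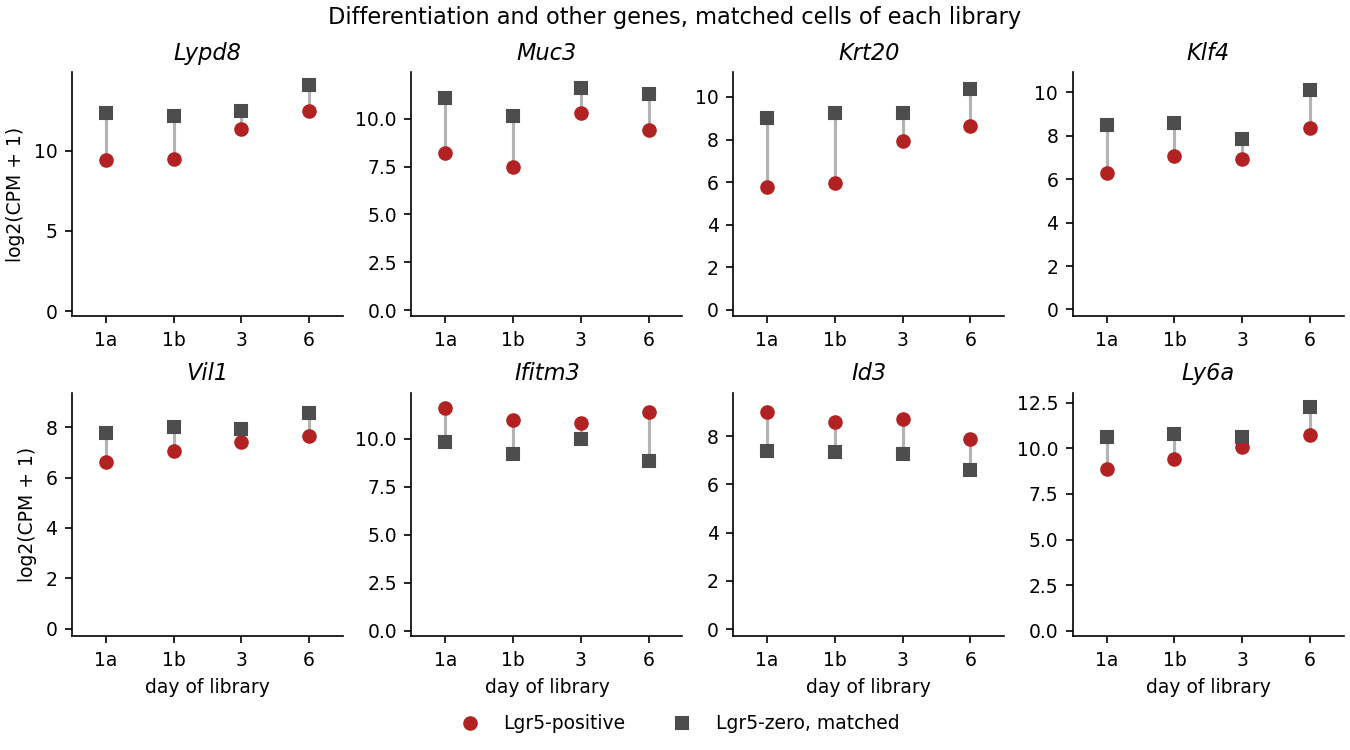
Level of genes of differentiated cells and of Ifitm3, Id3 and Ly6a, as log2 of CPM plus 1 (y axis), in the matched Lgr5-positive cells (red) and their Lgr5-zero partners (grey) of each library (x axis, with 1a and 1b for the replicates of day 1). Krt20 and Klf4 were lower and Ifitm3 and Id3 higher in the Lgr5-positive cells of all 4 libraries, and Lypd8 did not pass the test.

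Intestinal transcription factors were split, with 8 of 21 tested lower and 3 higher (median -0.26). The identity factor Cdx2 (-1.32 ± 0.31) fell with Cdx1 (-0.94 ± 0.17), Hnf4a (-0.68 ± 0.13) and Hoxb13 (-0.47 ± 0.11), although Cdx2 was not lower in day 6 (18.0 CPM against 14.9). Foxa3 (0.74 ± 0.15) and Hoxa9 (0.45 ± 0.13) rose beside Sox9. Cdx2 did not pass without day 1 replicate 2 (adjusted p = 0.166), and Hoxa9 in none of the fits that left out a library (0.053 to 0.0968). General columnar epithelial genes, such as Cdh17 (-0.76 ± 0.10), Cldn7 (-0.72 ± 0.11) and Cdh1 (-0.58 ± 0.10), were lower for 9 of 12 tested genes and higher for 0, so that the members held less of most genes of the columnar epithelium outside the rule.

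Genes of goblet cells, which make mucus, were lower for 8 of 13 tested genes and higher for 0 (median -1.70). Muc2, the main gel-forming mucin, stood at 1877, 551, 2030 and 469 CPM against 5401, 2351, 4043 and 2077 (-1.68 ± 0.22, adjusted p = 0.00483). Clca1 fell by 2.42 (SE 0.26), at 41.7, 15.3, 2.77 and 12.0 CPM against 164, 103, 0 and 96.6. Paneth-like genes had no common direction: of 12 tested, Ang4, Defa17 and Nupr1 were lower and Itln1 was higher, and Lyz1 stood at 410, 523, 455 and 1663 CPM against 910, 596, 1225 and 108. None of 5 tested enteroendocrine genes passed in edgeR, with 0 at an unadjusted p under 0.05. Avil, one of 2 tested tuft cell genes, was higher by 0.60 ± 0.16. Without day 1 replicate 1 the adjusted p was 0.0776 for Itln1 and 0.0645 for Avil, and without day 1 replicate 2 it was 0.468 for Defa17 and 0.212 for Avil.

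Genes of fetal-like repair and of the YAP pathway were lower for 14 of 23 tested genes and higher for 1 (median -0.63). Ly6a, which encodes the repair marker Sca-1, stood at 462, 674, 1057 and 1669 CPM against 1555, 1764, 1586 and 4872. It was lower in each library (-1.32 ± 0.19, adjusted p = 0.0037). The growth factor gene Areg (-1.76 ± 0.19) fell, and so did Ctgf (-1.64 ± 0.26) and the annexin genes Anxa1, Anxa2 and Anxa3 (-1.39, -1.12 and -1.38). Spp1, which encodes osteopontin, was the one that rose (2.02 ± 0.41), and neither it nor Ctgf passed without day 1 replicate 2 (adjusted p = 0.146 and 0.0514). Clu, which marks cells that rebuild the crypt after damage, gave 0.36 ± 0.45 and did not pass.

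The interferon-inducible membrane genes Ifitm1, Ifitm2 and Ifitm3 rose in the members, whereas Ifi27 and Ifi27l2b fell, among 7 tested interferon genes (median -0.16). Neither of the latter passed without day 1 replicate 1 (adjusted p = 0.0594 and 0.0667) or replicate 2 (0.199 and 0.257). Ifitm3 stood at 3133, 2037, 1817 and 2677 CPM against 918, 596, 1032 and 464, with no overlap (1.70 ± 0.31, adjusted p = 0.0227, and 0.108 without day 1 replicate 1). Ifitm2 rose by 1.03 ± 0.13 and Ifitm1 by 1.49 ± 0.27, and the 3 genes are near copies that may share reads. MHC genes, which present antigen, were lower for 3 of 15 tested and higher for 0 (median -0.51), with H2-K1 at -0.58 ± 0.11 and H2-D1 at -0.75 ± 0.13. The share lower over all genes tested was 14.1%.

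Among p53 targets, genes that DNA damage induces, 5 of 22 were higher and 0 lower (median 0.20), beside 13.2% and 14.1% of all genes tested. Trp53inp1 rose by 1.03 ± 0.16, Psrc1 by 1.05 ± 0.22, Ddit4l by 1.00 ± 0.24, Eda2r by 0.87 ± 0.26 and Zmat3 by 0.63 ± 0.16. Ddit4l and Zmat3 did not pass without day 1 replicate 1 (adjusted p = 0.0572 and 0.0603), nor did Ddit4l without replicate 2 (0.0733) or Zmat3 without day 3 (0.0721). Eda2r was not among the genes tested without either library of day 1. It passed without day 3 (adjusted p = 0.0431) and not without day 6 (0.0515). The widely used targets Cdkn1a (996, 809, 1225 and 238 CPM against 909, 866, 1047 and 394), Mdm2 (0.11 ± 0.14) and Ccng1 (0.15 ± 0.14) did not pass. Genes of the 2 drugs' targets, transport and metabolism were higher for 2 and lower for 5 of 25 tested (median -0.13), beside the same 13.2% and 14.1%. The efflux pump genes moved both ways: Abcc2 (1.95 ± 0.27) and Abcc4 (1.02 ± 0.15) rose, while Abcg2 (-2.09 ± 0.35), Abcb1a (-1.91 ± 0.37) and Abcc3 (-1.38 ± 0.17) fell, with Abcb1a at an adjusted p of 0.0763 without day 1 replicate 2. Top1, which encodes the target of irinotecan, gave 0.23 ± 0.13 and Tyms, the target of 5-FU, -0.18 ± 0.19, and neither passed.

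**Figure D4:**
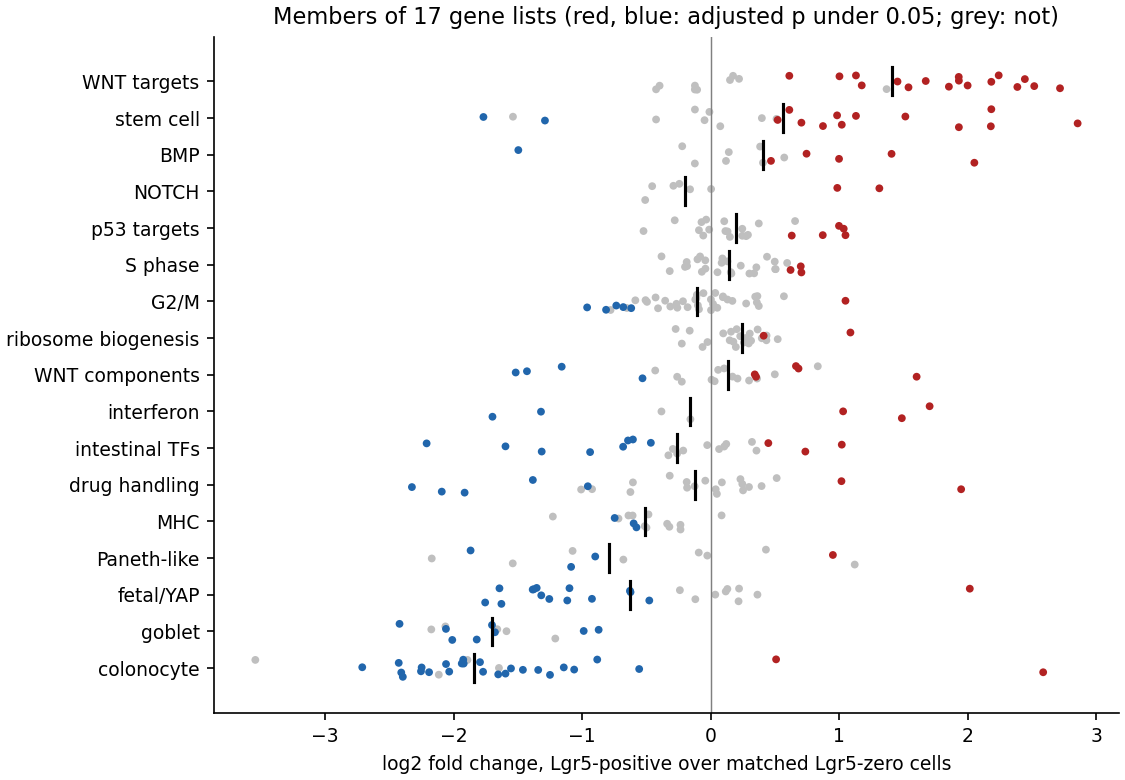
Log2 fold change of Lgr5-positive over matched Lgr5-zero cells (x axis) for each tested gene of 17 lists (y axis), with genes that passed the test in red (higher) or blue (lower), others in grey and the median of each list as a black bar. The medians run from 1.41 for WNT targets to -1.84 for colonocyte genes, beside 0.041 for all genes tested.

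Genes listed for other cell types also differed between the classes. Plasma cell genes, as given above, were higher in the partners of every library, with 2 of 4 tested genes lower in the members (Igkc, -1.81 ± 0.24, and Mzb1, -3.15 ± 0.48) and values of Jchain and Igha that did not pass. Of other lists, 3 of 5 macrophage genes, 3 of 9 squamous genes, 1 of 2 fibroblast genes and 0 of 3 neutrophil genes were lower in the members and 0 were higher. Macrophage genes too low to test went both ways. Cd68 held 3, 29, 9 and 3 UMIs in matched members against 6, 13, 3 and 0, and Adgre1 4, 10, 1 and 0 against 1, 2, 1 and 0. C1qa held 2, 9, 8 and 2 against 3, 18, 13 and 2, C1qb 12, 10, 8 and 3 against 12, 11, 29 and 3, and C1qc 4, 6, 4 and 3 against 0, 15, 13 and 4. The neutrophil genes summed to more in the members of every library, at 230.1, 251, 223 and 354 CPM against 157, 136, 205 and 25.9, and Lcn2 among them gave 1.34 ± 0.54 and did not pass. Summed macrophage genes were higher in the partners of every library (258 to 529 CPM). Without the 25% of columnar cells with the highest plasma cell share in each library, 886 genes were higher and 1244 lower, and without the 25% with the highest share of secretory genes 2038 genes passed in all. The part of such transcripts in each rise or fall was not tested beyond these counts.

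Shares of cells with transcripts of cell cycle genes gave no difference that passed a test, in a design of 4 libraries that cannot reach 0.05. In cells thinned to 1000 UMIs, at least 2 UMIs of genes of the G2 and M phases were held by 36.1%, 35.3%, 72.5% and 52.6% of members and by 42.2%, 32.4%, 69.7% and 47.4% of partners. The mean difference was 1.22 percentage points (SD 4.96, n = 4 libraries, exact two-sided permutation test p = 0.75, where 0.13 is the smallest p that 4 libraries allow). With at least 1 UMI the share was higher in the members of all 4 libraries, by a mean of 5.00 points (SD 3.19, n = 4, exact permutation p = 0.13). Up to 72.5% of a class passed the cutoff of 2 UMIs. These shares therefore describe transcripts of the listed genes and are not shares of cells in G2 or M. At least 2 UMIs of S phase genes were held by 26.5%, 33.0%, 48.6% and 57.9% of members and by 28.9%, 22.1%, 40.4% and 26.3% of partners. This share was higher in the members of 3 of 4 libraries, by a mean of 12.1 points (SD 14.2, n = 4, exact permutation p = 0.25) and of 5.58 points without day 6, where each class has 19 cells. Of 40 tested genes of these phases 5 were lower, among them Birc5 (-0.62 ± 0.13) and Mki67 (-0.68 ± 0.19), and 1 was higher. S phase genes were higher for 3 of 28 tested, among them Cdca7 and Rfc2, and lower for 0. Genes of ribosome biogenesis were higher for 2 of 24 tested (Npm1, 0.41 ± 0.10, and Noc2l, 1.09 ± 0.24) and lower for 0 (median 0.24). Of all genes tested, 13.2% were higher and 14.1% lower, and none of these lists of phase and ribosome genes exceeded either share. Without day 1 replicate 2 the adjusted p was 0.0676 for Birc5, 0.157 for Mki67, 0.0596 for Rfc2, 0.0768 for Npm1 and 0.0859 for Noc2l. Mki67 did not pass without day 1 replicate 1 (0.0761) either, nor did Npm1 without day 6 (0.0985).

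Members showed more genes at equal depth. At 1000 UMIs per cell they held a mean of 772, 787, 749 and 783 genes, against 696, 718, 715 and 691 in their partners. The difference was positive in all 4 libraries, with a mean of 68.1 genes (SD 24.5, n = 4), and the exact two-sided permutation test gave p = 0.13, the smallest it can reach here.

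From early to late treatment, none of 10551 genes passed the test within the members (0% higher and 0% lower), with 2 libraries against 2. The lowest adjusted p by edgeR was 0.0786, 1207 genes had an unadjusted p under 0.05 (675 higher and 532 lower), and DESeq2 called 106 genes. With the index structure as a block, which sets day 3 against day 1 replicate 1 and day 6 against day 1 replicate 2, edgeR called 50 genes higher and 19 lower. The comparison has 2 limits. Y-linked transcripts were found in the members of the early libraries (Ddx3y 131 and 407 UMIs, Eif2s3y 175 and 473), and both genes were at 0 in those of the late ones, with Uty at 180 and 588 UMIs against 3 and 0. In the late members Xist, the RNA of the inactive X chromosome, had 27 and 44 UMIs against 0 and 1, so that the sex of the mice and the time of treatment cannot be told apart. Day 6 rests on 19 cells, and without it 998 genes passed in edgeR, from 1 late library that is assumed to vary like the early ones.

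Values of the members in each library are therefore given as a description, with the change within single index libraries (day 3 minus day 1) and within dual index libraries (day 6 minus day 1) side by side. Of all genes, 30.6% were higher and 32.0% lower in both pairs. MHC genes were higher in both pairs for 16 of 16 tested, with a median log2 change of 1.17 in the first pair and 3.78 in the second. H2-K1 stood at 514, 252, 1328 and 3194 CPM and B2m, the light chain of class I molecules, at 290, 94.5, 357 and 2518, in both cases highest in day 6 (adjusted p = 0.27 and 0.366 in edgeR). Colonocyte genes were higher in both pairs for 27 of 31, with Krt20 at 126, 62.3, 260 and 427 CPM. Genes of the G2 and M phases were higher in both for 35 of 44, for example Cenpa at 20.9, 22.8, 143 and 168 CPM (adjusted p = 0.098). The matched Lgr5-zero partners shared part of these changes. In them MHC genes summed to 3298, 1707, 4288 and 13604 CPM and G2 and M genes to 1983, 1569, 2961 and 3985, higher in both pairs. Their colonocyte genes summed to 18258, 16580, 18063 and 36274 CPM, higher in the second pair only.

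WNT targets were lower in both pairs for 17 of 27 and higher for 1. Wif1 stood at 1116, 759, 193 and 168 CPM in the members of the 4 libraries and Lef1 at 208, 204, 40.3 and 80.8, so that both early values lay above both late values (adjusted p = 0.196 and 0.271). Axin2 changed less, at 272, 280, 181 and 133 CPM (-0.81 ± 0.38, adjusted p = 0.463). Stem cell genes had no common direction, with 9 higher and 7 lower of 27. Smoc2 stood at 486, 277, 269 and 278 CPM and Ascl2 at 51.2, 43.4, 123 and 71.1. Of 24 p53 targets, 15 were lower in both pairs and 2 higher, with Eda2r at 58.5, 52.4, 13.4 and 3.23 CPM (adjusted p = 0.25). In the matched Lgr5-zero partners WNT targets summed to 4056, 5332, 2764 and 1712 CPM and p53 targets to 2439, 2717, 1999 and 1316. Both sums of the partners were thus lower in both pairs as well.

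Whether the change from early to late treatment differed between members and partners was tested by an interaction term in the same 8 sums. Of 10078 genes, 32 passed with a larger rise or smaller fall in the members (0.318%) and 1 the other way (0.00992%). Of the 32, 9 were among the 31 tested colonocyte genes. By contrast, 1 of 19 tested MHC genes passed, and 0 of 47 genes of the G2 and M phases. For WNT targets it was 0 of 27 and for p53 targets 0 of 23. With the scaling of this fit, Krt20 stood at 51.3, 57.8, 245 and 396 CPM in matched members and 511, 620, 638 and 1315 in partners. Its deficit in the matched members thus narrowed, by 1.83 ± 0.22 on the log2 scale (adjusted p = 0.000307). The early values leave out the 39 deep members of day 1 replicate 1 that had no partner. Colonocyte genes summed to 5501 CPM in all 122 members of that library and to 3624 in the 83 matched ones. The part of the unmatched members in the narrowing was not tested separately. Dmbt1, a mucosal defense protein, stood at 237, 83.8, 1055 and 842 CPM against 1901, 747, 2843 and 2407, a difference of 1.61 ± 0.16 (adjusted p = 0.000123). Sprr1a, a cornified envelope protein, stood at 28.2, 42.8, 126 and 86.9 CPM against 267, 302, 188 and 78.0 (2.59 ± 0.31), and in day 6 the members were not lower.

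Lypd8 (1.49 ± 0.15), Car1 (1.82 ± 0.23), Muc3 (1.25 ± 0.19) and B2m (0.99 ± 0.18) passed in the same direction. Asic2, an acid-sensing ion channel, was the 1 gene the other way, at 81.5, 68.0, 2.82 and 3.00 CPM in members against 3.85, 4.91, 4.69 and 11.1 (-5.09 ± 1.05, adjusted p = 0.0422), high in the early members alone, and it did not pass without day 1 replicate 1, day 3 or day 6 (adjusted p of 0.12 to 0.14). Without day 1 replicate 1, 11 genes passed, and without the deepest cells of each library 1. Members of day 3 held a median of 2 Lgr5 UMIs against 5 or 6 in day 1, and with at least 3 UMIs as the limit 16 genes passed. They were also less deep, with a median of 6120 UMIs in all against 12074 and 11853 in the replicates of day 1. Lgr5 made up 454 CPM of their UMIs against 615 and 544. The part of these differences in the interaction was not tested.

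**Figure D5:**
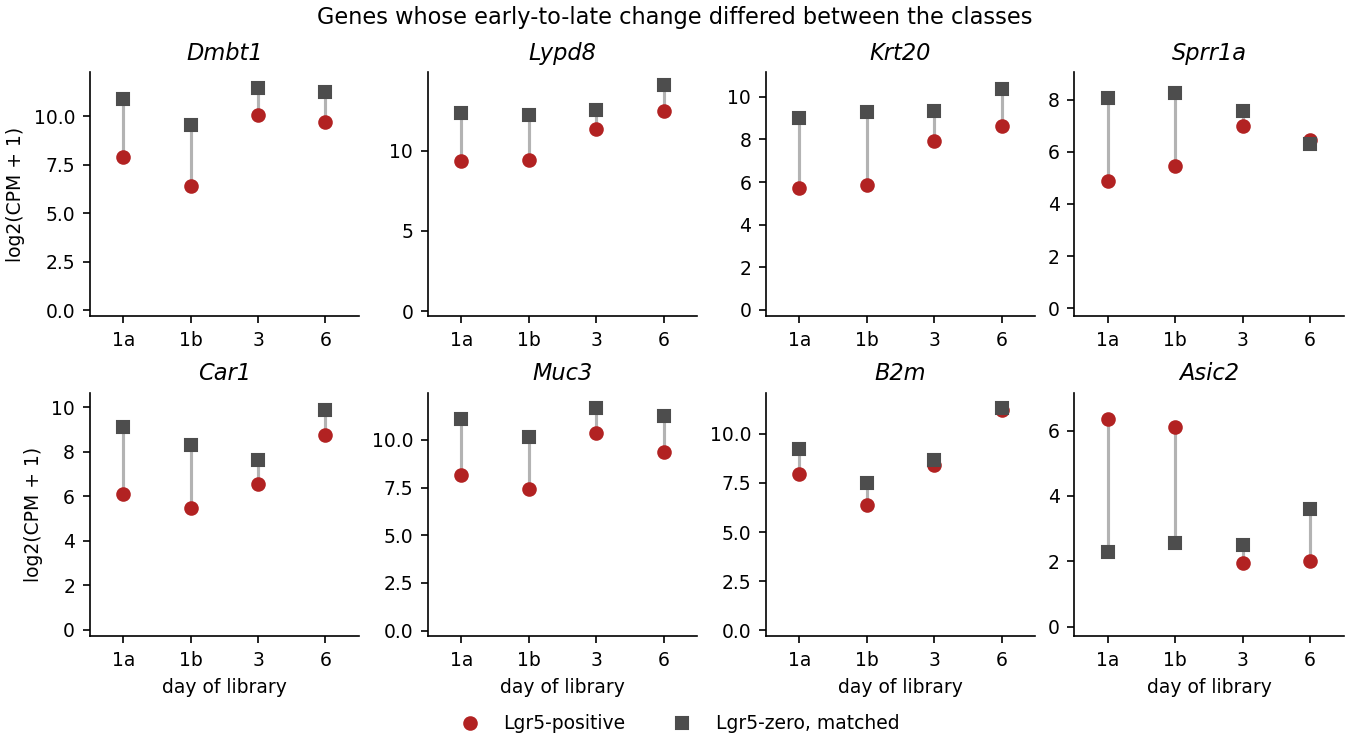
Level of 8 genes whose change from early to late treatment differed between the classes, as log2 of CPM plus 1 (y axis), in the matched Lgr5-positive cells (red) and their Lgr5-zero partners (grey) of each library (x axis, with 1a and 1b for the replicates of day 1). The gap for Krt20 narrowed from day 1 to days 3 and 6, and Asic2 was high only in the Lgr5-positive cells of day 1.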

How the data were processed

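The cells were single-cell RNA profiles from inDrop libraries of treated AOM/DSS tumors. Per the paper's methods, the authors made the values with dropEst from reads aligned to GRCm38, the build named in the submitters' processing notes, with no batch correction. The deposited values are raw UMI counts, with a total of 5132360, 16904947, 6659486 and 16079367 per library over 21947 genes, so that a library's depth sets the precision of its sums. Columns of other series: 0. Doublets were not removed here.

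The members and gene lists were chosen with earlier results of these data known. Cells were selected by the rule, and members were matched 1 to 1 without replacement to Lgr5-zero cells of the same library, deepest first. Pairs of sums came from the same library, which was therefore the block. UMIs summed per library and class were tested by edgeR 4.0.16 (TMM, filterByExpr, quasi-likelihood, Benjamini-Hochberg over all genes tested) in R 4.3.3, with DESeq2 1.42.0 as an alternative. Scripts were tested on simulated data. Shares used exact 95% binomial intervals, and per-library differences exact permutation tests, with Python 3.11.15 and scipy 1.17.1. Intervals cover counting error only. Thinning used 1 random draw.

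Named genes were the 15 largest rises and 15 largest falls among genes called in the same direction in 4 libraries with a mean of at least 20 CPM in one class (1016 higher and 1143 lower), the 10 interaction calls of lowest p in each direction, and listed genes. Listed symbols without a column in the files were not analysed here. Values of some listed genes are not reported here.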

Additional observations from a re-analysis of the deposited data

Results flagged for a closer look

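The test of the difference itself, the interaction of class and treatment time in edgeR, picked out genes whose change from early to late treatment differed between Lgr5-positive cells and their matched Lgr5-zero partners. The log2 difference of the changes was 1.61 for Dmbt1, 1.49 for Lypd8, 1.83 for Krt20, 2.59 for Sprr1a, 1.82 for Car1, 1.99 for Adh1 (an alcohol and retinol dehydrogenase), 1.72 for Serpinb1a, 1.94 for Gsdmc4, 1.83 for AA467197 and 1.25 for Muc3. For Asic2 it was -5.09. Without the deepest cells Sprr1a passed and the other 10 did not, and without matching 1 of the 11 passed. Without day 1 replicate 1, Dmbt1, Krt20 and Sprr1a passed and the other 8 did not, with adjusted p from 0.058 for Lypd8 to 0.39 for Muc3. Sex and treatment time cannot be told apart in these libraries.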

How the results depend on the processing

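Lgr5-positive against Lgr5-zero cells gave 2436 genes, and 1075 to 2470 when 1 library was left out (1513 without day 1 replicate 1, 1075 without day 1 replicate 2), 491 (of 2254 tested) at 1000 UMIs per cell and 0 with no replicate block, where 1166 genes had an unadjusted p under 0.05. The other settings gave 1644 (DESeq2) to 3128 genes. No listed or named gene that passed in the main fit changed direction, except Ccnb2 at 1000 UMIs (0.045). Listed genes that did not pass are not covered by this statement, nor are genes that a setting left untested. Of 173 listed or named genes that passed, 69 kept their call at 1000 UMIs, 18 no longer passed and 1 was reversed. The rest of them were not tested there.

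Late against early treatment in the members gave 0 genes, and 28 to 998 with 1 library left out (64 and 28 without the replicates of day 1, 169 without day 3, 998 without day 6), 106 by DESeq2, 322 with no filter on low counts, 69 with the index structure as a block, 5 with at least 1 UMI of Lgr5, 2 at 1000 UMIs per cell and 1 with the day as a number. The replicate numbers pair no early with a late library.

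The interaction gave 33 genes, and 11 to 134 with 1 library left out, 15 by DESeq2, 156 with no filter, 16 with at least 3 UMIs of Lgr5, 5 at 1000 UMIs per cell, 1 without the deepest cells, 21 without cells of high plasma cell share and 7 without matching. The difference in the share of cells with G2 and M transcripts was -0.13 points without day 6, 3.63 points without day 1 replicate 1 and 5.00 points with at least 1 UMI. The mean share of members over the libraries was 14.6% (SD 10.9) and 26.6% with at least 1 UMI. Leaving out every cell with 3 or more UMIs of secretory genes was not run, since 0 columnar cells remained. The alternatives on plasma cell share, secretory share, shared barcodes and the share of members were chosen after seeing the data. So was the test of the share of cells with S phase transcripts. The cause of these shifts was not tested.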
